A study of Mus musculus with 12 samples.

Results

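The transcripts described here are 1454 non-coding RNAs (ncRNAs) of medium length that were recovered with the microRNA Mirlet7d from MLE-12 cells, out of 6208 ncRNA candidates in the deposited pull-down list. They were chosen by 3 properties that do not use the enrichment itself. Their NONCODE name is absent from the separate list of promoter-associated ncRNAs, their input value is not exactly 1 RPKM (reads per kilobase of span, scaled to library size), and their span is longer than 2000 and at most 20000 bases. The promoter-associated list holds 2432 of the other candidates. A further 1106 non-promoter candidates have an input of exactly 1 RPKM, 1101 measured ones are shorter, with spans of at most 2000 bases, and 115 are longer than 20000 bases. An input of exactly 1 RPKM was set apart because the listed fold of all 1563 such entries equals their pull-down RPKM, and the source of that value is not stated.

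MLE-12 is an immortalised mouse line of lung epithelial origin. For the pull-down library, cells received 25 nM of biotinylated Mirlet7d and were harvested after 48 h, and the RNA held by the biotin tag was captured on streptavidin beads. The input library is labelled as the input of that pull-down, and its cells carry the same transfection label. Both libraries were depleted of ribosomal RNA and pre-amplified. For the ChIRP library, which maps where an RNA sits on chromatin, MLE-12 chromatin labelled as Mirlet7d gain of function was incubated with 150 pmol of biotinylated oligonucleotides tiling mature Mirlet7d. An input DNA library of the same series is labelled as its control, and its own values were not used here. Each group is 1 library, so there is no replicate error, no test was made between libraries, and intervals cover counting error only. A random biotinylated microRNA is named in the transfection protocol, but no capture with it was used here, so association with Mirlet7d and capture without it cannot be told apart. The identity of the cells could not be checked against marker genes, because the tables list only enriched entries. In bulk RNA of this kind, fewer cells carrying a transcript and less of it per cell cannot be told apart.

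MicroRNAs of the let-7 family act in the cytoplasm within Argonaute proteins, where the bases of the seed pair with messenger RNAs and lower their stability and translation. The family is a classic brake on proliferation and is best known for repressing genes such as Hmga2. Long ncRNAs, by contrast, are often retained in the nucleus, and many lie in introns of coding genes, next to promoters or in intergenic sequence. The study's stated aim for the pull-down was to find RNAs that associate with Mirlet7d in the nucleus.

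The bait is shown first because both captures were made with or against it. The mature sequence below is from the RefSeq annotation of GRCm38.p6, where it lies on chromosome 13 from 48536078 to 48536099 on the minus strand. The capitals mark the seed, bases 2 to 8 of 22.
mmu-let-7d-5p: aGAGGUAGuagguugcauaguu
The sequence complementary to this seed reads CTACCTC, or GAGGTAG on the other strand. The spans of the ncRNAs themselves are given in mm9 and no genome of that build was used here, so their own sequences were not searched. Promoter sequences of 3 neighbouring genes appear below beside the chromatin data.

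The ncRNAs had a median span of 3372 bases, with quartiles of 2596 and 5118 and a range of 2004 to 19741. Spans are as deposited and run from the first to the last base, with introns included. In the pull-down the median level was 2.61 RPKM (quartiles 1.17 and 5.99), against 0.346 RPKM in the input. Levels ran from 0.04 to 325.464 RPKM in the pull-down and from 0.006 to 112.314 RPKM in the input. The median of the deposited fold, pull-down over input, was 5.66 (95% binomial interval of the median 5.30 to 5.90), with quartiles of 3.37 and 12.6 and a range of 2.5 to 161.97. The median over all 6208 candidates was 5.06, and over the 4645 candidates with a measured input it was 5.45. The short non-promoter ncRNAs had a median of 5.69, the long ones 6.60 and the promoter-associated ones 5.12. Nothing below 2.5-fold is listed, so every value here comes from a selected list, and its lower edge is visible as a straight border in the plot of pull-down against input levels.

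**Figure D1:**
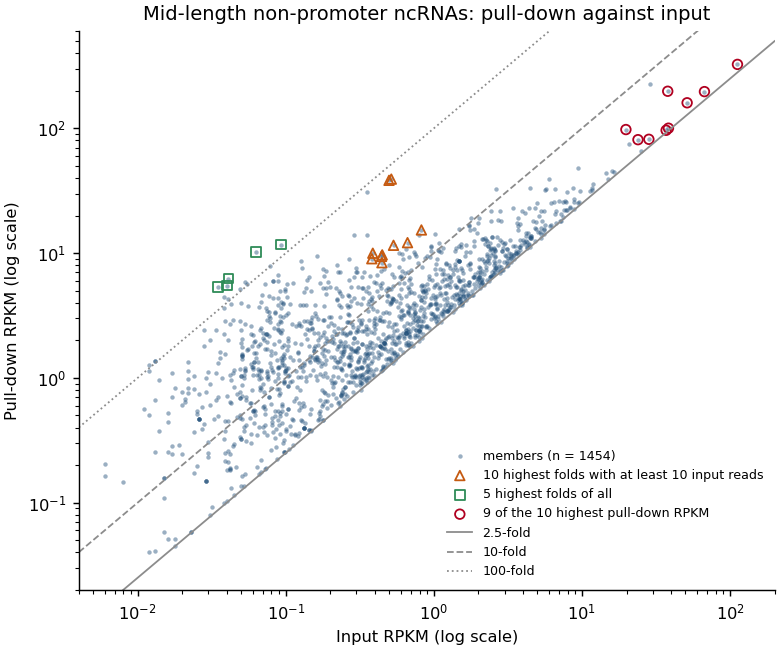
Pull-down RPKM (vertical, log scale) against input RPKM (horizontal, log scale), 1 point for each of the 1454 mid-length non-promoter ncRNAs, with lines at 2.5-fold, 10-fold and 100-fold. NONMMUT026522, the most abundant, lies near the 2.5-fold line at 2.9-fold, while the 5 highest folds of all (squares) lie at inputs of 0.093 RPKM or less.

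Across the ncRNAs, 448 of 1454 exceeded 10-fold, which is 30.8% (exact Clopper-Pearson interval 28.4 to 33.3%), while 24.3% of all ncRNA candidates and 28.9% of those with a measured input did so. A fold above 5 was reached by 802 of them, or 55.2%, beside 50.4% of all candidates. The share above 10-fold varied little with length. It was 30.9% of 573 ncRNAs with spans of up to 3000 bases, 32.2% of 503 up to 5000, 26.9% of 242 up to 10000 and 32.4% of 136 up to 20000, with intervals that overlap. RPKM levels were lower in longer spans. Median pull-down levels were 4.10, 2.78, 1.67 and 0.801 RPKM in the same order of length. Median input levels were 0.498, 0.376, 0.233 and 0.124 RPKM. Read numbers, recovered as described below, did not fall, with median pull-down reads of 148, 167, 168 and 175. Their Spearman correlation with span was 0.05 in the pull-down and 0.07 in the input. RPKM divides reads by the whole span, introns included, so whether longer ncRNAs were less abundant was not tested. The length limits fall within a continuous range of values. Just inside the lower limit, NONMMUT015040 (2004 bases) had a fold of 19.1, NONMMUT015228 (2006 bases) 75.91 and NONMMUT050113 (2006 bases) 5.11. Just outside it, NONMMUT035473, NONMMUT073965 and NONMMUT053761 (1994, 1995 and 1997 bases) had folds of 3.8, 2.93 and 32.04. At the upper limit NONMMUT058028, NONMMUT007685 and NONMMUT027231 (19542, 19616 and 19741 bases) had folds of 2.55, 4.38 and 3.94 inside. The nearest outside were NONMMUT032839 (20027 bases) with 23.81 and the same-span entries NONMMUT022626 and NONMMUT022627 (20113 bases) with 3.3 each.

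RPKM multiplied by span fell on whole numbers of reads for these ncRNAs, which makes the depth behind each fold visible. The steps correspond to 14.97 M reads in the pull-down and 9.66 M in the input, and 99.8% of the pull-down values and 100% of the input values lay within 0.15 read of a whole number. The median ncRNA rested on 162 pull-down reads and 12.5 input reads. Most of the recovered input numbers (83.6%) were even, so reads were counted as pairs in the intervals. A single input pair stood behind 277 of the ncRNAs (19.1%, interval 17.1 to 21.2%). The 95% counting interval of the fold lay above 1 for 1368, or 94.1%, which is also the share among all candidates with recovered reads (94.1%). It lay above the listing limit of 2.5 for 748, or 51.4%, against 51.4% of all such candidates, and above 10 for 56, or 3.85%, against 3.69%.

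The size of the fold moved with the depth of the input. Among ncRNAs with a single input pair the median fold was 19.6 and 72.6% exceeded 10. Those with 2 pairs had a median of 14.0, those with 3 to 4 pairs 8.50, those with 5 to 9 pairs 5.66 and those with 10 to 19 pairs 4.29. With 20 to 49 pairs the median was 3.46 and 2 of 230 exceeded 10, and with 50 or more it was 2.98 and 1 of 147 did. This fall is not particular to these ncRNAs. Among the short non-promoter ncRNAs the share above 10-fold fell from 60.8% at 1 pair to 1.33% at 20 to 49 pairs. Among the promoter-associated ones it fell from 75.5% to 2.75%. Across the 1454 ncRNAs the Spearman correlation of fold with input reads was -0.67. This correlation is a description only, since the input stands in both quantities. Of the 834 ncRNAs with at least 10 input reads, 78 (9.35%) exceeded 10-fold, their median was 3.88 and the highest value was 76.92. The share of all candidates above 10-fold at that depth is not given here. The part of input depth in the folds above 10 was not tested.

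**Figure D2:**
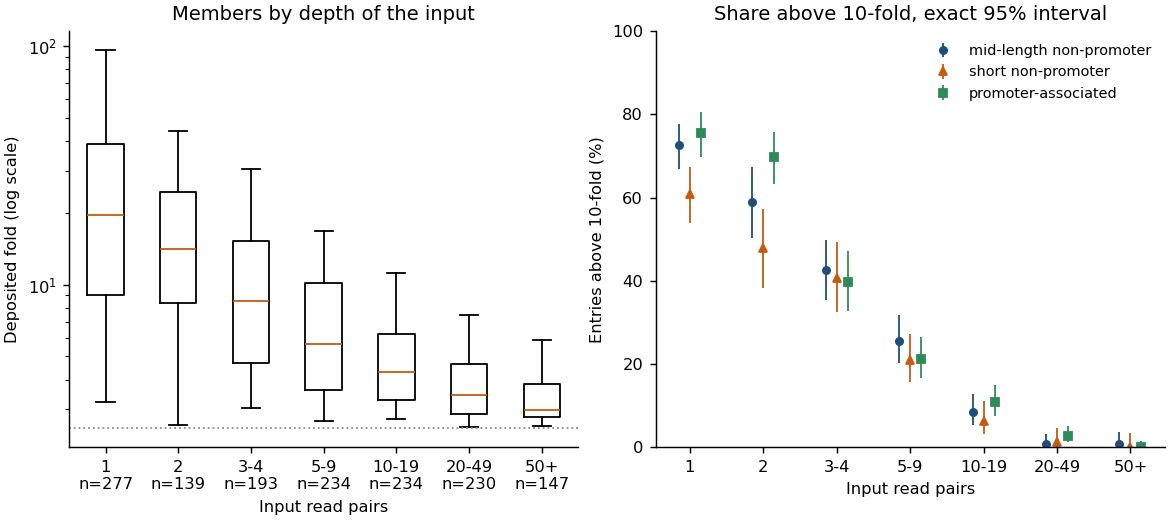
Left, deposited fold (log scale) of the mid-length non-promoter ncRNAs in 7 classes of input read pairs, as boxes with medians and quartiles and whiskers at the 5th and 95th percentiles, the dotted line being the 2.5-fold listing limit. Right, the share of entries above 10-fold in the same classes with exact 95% intervals for the mid-length, short non-promoter and promoter-associated ncRNAs. The mid-length share is 72.6% with 1 input pair and 0.680% with 50 or more.

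The folds of the most abundant ncRNAs are the most precise. NONMMUT026522, on chromosome 16 from 37822788 to 37835710 (mm9), had 325.464 RPKM in the pull-down, against 112.314 RPKM in the input. These levels rest on 62947 and 14022 reads and give a fold of 2.9 (2.82 to 2.97). NONMMUT026521, which shares its locus, had 196.918 RPKM in the pull-down, against 67.205 RPKM in the input, a fold of 2.93 (2.85 to 3.01). Both intervals lie above the 2.5-fold limit, and the pair, which share reads, differ by less than their counting error. NONMMUT009562 had 160.23 RPKM in the pull-down, against 51.336 RPKM in the input (3.12-fold, 2.90 to 3.36). It lies 6388 bases from a promoter-associated ncRNA of Scgb3a1, a secretoglobin gene of the airways.

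Abundant ncRNAs also lay in or near coding genes. NONMMUT067479 lies within Zcchc14 on chromosome 8, whose messenger RNA was itself on the pull-down list, and had 198.271 RPKM in the pull-down, against 37.966 RPKM in the input (5.22-fold, 4.79 to 5.69). The Zcchc14 messenger RNA had a fold of 3.87. NONMMUT011394, with 81.683 RPKM in the pull-down, against 28.315 RPKM in the input (2.88-fold, 2.53 to 3.29), lies 4137 bases from a promoter-associated ncRNA of Srsf1, a splicing factor gene.

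A further 4 of the 10 most abundant ncRNAs had folds between 2.6 and 4.93. NONMMUT056219 on chromosome 6 was the highest of these, with 97.77 RPKM in the pull-down, against 19.813 RPKM in the input (4.93-fold, 4.42 to 5.51). NONMMUT056239, also on chromosome 6, had 81.111 RPKM in the pull-down, against 23.903 RPKM in the input (3.39-fold, 3.03 to 3.80). For NONMMUT023994, with 100.281 RPKM in the pull-down, against 38.397 RPKM in the input, the fold was 2.61 and its interval of 2.37 to 2.88 spans the listing limit. The same holds for NONMMUT043777, which overlaps a promoter-associated ncRNA of 1700113A16Rik and had 96.482 RPKM in the pull-down, against 37.046 RPKM in the input (2.6-fold, 2.42 to 2.81).

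Among ncRNAs with at least 10 input reads the highest folds belonged to a pair within Gtf2a1, which encodes a subunit of the general transcription factor TFIIA. NONMMUT015229, on chromosome 12 from 92794416 to 92796495, had 38.308 RPKM in the pull-down, against 0.498 RPKM in the input. That is 1192 and 10 reads, a fold of 76.92 (32.8 to 238). NONMMUT015228 overlaps it and had 39.169 RPKM in the pull-down, against 0.516 RPKM in the input (75.91-fold, 32.3 to 235), so the pair share most of their reads. The Gtf2a1 messenger RNA was listed at 2.99-fold, below both intervals. Next came NONMMUT070152 on chromosome 9, with 9.977 RPKM in the pull-down, against 0.387 RPKM in the input (25.78-fold, 10.9 to 80.4).

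A group of 3 overlapping ncRNAs on chromosome 4 followed. NONMMUT048153 had 9.009 RPKM in the pull-down, against 0.381 RPKM in the input (23.65-fold, 10.7 to 65.2), and NONMMUT048152 and NONMMUT048154 had folds of 21.62 and 21.6, each from 402 pull-down reads and 12 input reads. The narrowest interval among the 10 was that of NONMMUT000874, a span of 8642 bases on chromosome 1 from 52264145 to 52272787. It had 9.409 RPKM in the pull-down, against 0.443 RPKM in the input, from 1217 and 37 reads (21.24-fold, 13.1 to 34.6). The remaining 3, NONMMUT036369 and NONMMUT037801 on chromosome 2 and NONMMUT014842 on chromosome 12, had folds of 18.77, 18.6 and 18.26. The intervals of all 10 overlap one another.

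The 5 highest folds of all rested on 1 input pair each. NONMMUT053315 on chromosome 5 had 10.204 RPKM in the pull-down, against 0.063 RPKM in the input, a fold of 161.97 with an interval of 28.8 to 6425. NONMMUT012403 had 5.344 RPKM in the pull-down, against 0.035 RPKM in the input (152.69-fold, 27.3 to 6093), and lies 4010 bases from a promoter-associated ncRNA of Cep95. NONMMUT073888 on chromosome X had 6.257 RPKM in the pull-down, against 0.041 RPKM in the input (152.61-fold), and lies 984 bases from a promoter-associated ncRNA of Mir3112. NONMMUT027871 and NONMMUT053189 had folds of 136.98 and 125.9, and the second lies largely within Bmp2k, a kinase gene. The intervals of these 5 overlap each other and those of the Gtf2a1 pair, so their order is not settled by the counts.

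**Figure D3:**
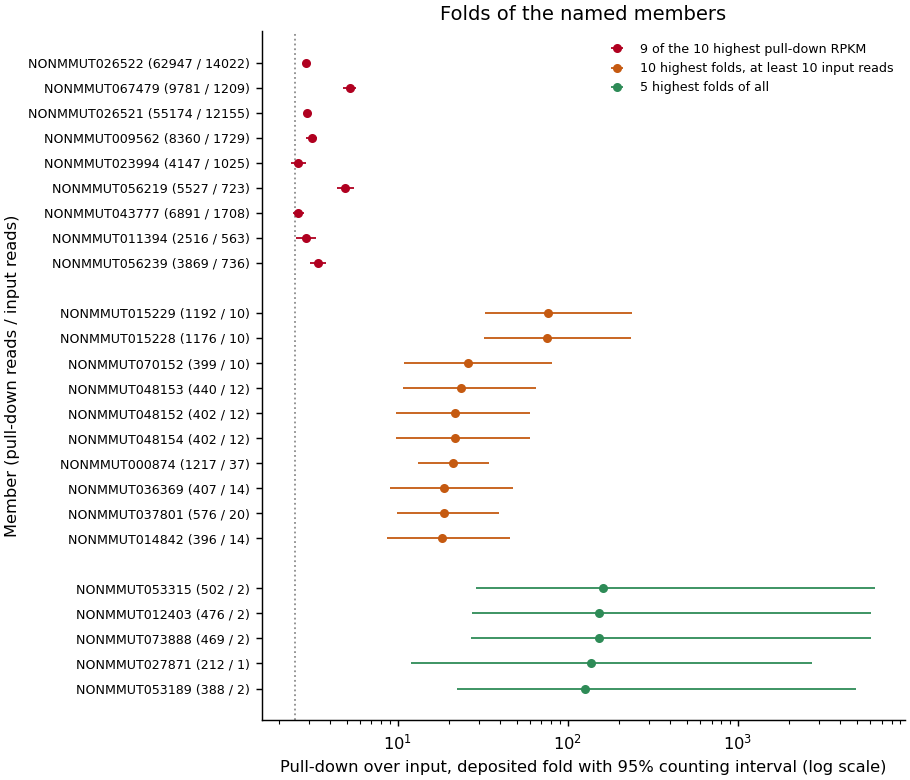
Deposited fold (horizontal, log scale) with its 95% counting interval for 24 ncRNAs, each labelled with its pull-down reads and input reads, the dotted line being the 2.5-fold listing limit. The 9 shown of the 10 most abundant have intervals as narrow as 2.82 to 2.97, while the interval of NONMMUT053315, the highest fold of all, runs from 28.8 to 6425.

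The ncRNAs merged into 1248 loci by overlap of their spans, and 1102 loci held 1 ncRNA each. The other 146 loci held 352 of them. Transcripts of a locus share reads and are not independent measurements. Counting did not separate them: all 47 pairs with identical spans had identical RPKM values in the table, and in none of 138 nested pairs did the outer span hold fewer reads than the inner one. The largest locus, on chromosome 14 from 106026469 to 106042921, held 10 ncRNAs that overlap promoter-associated ncRNAs of Mir6390. Their folds ran from 5.33 to 17.92, on at most 110 pull-down reads and 4 input reads. A locus of 6 on chromosome 17 from 22847400 to 22858033 had folds of 3.04 to 5.22, on up to 1447 pull-down reads and 242 input reads. Another 6, on chromosome 7 from 4857827 to 4864022 near promoter-associated ncRNAs of Nat14, had 4.12-fold throughout.

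Enrichment was not even along some of these loci. Of 131 loci with at least 2 distinct spans, 47 had a highest fold over 1.5 times their lowest, 23 had folds on both sides of 10, and 29 had folds above 10 throughout. These counts take no account of counting error, and some of the loci hold few input reads. The same counts for loci of the other ncRNA candidates are not given here, so they do not mark out these ncRNAs. A locus on chromosome 4 from 11903474 to 11922172 had folds of 5.54 to 41.06 on at most 3 input reads. Where one ncRNA contains another, the reads outside the inner span can be had by subtraction. This comparison was chosen after the values had been seen. Of 110 distinct pairs of nested spans, 43 in 27 loci had at least 10 input reads outside the inner span. The fold of that outer stretch had a median of 2.89 and ran from 0.134 to 11.3. It was below 2.5 in 17 pairs (39.5%) in 13 loci, and its interval lay wholly below 2.5 in 12 pairs and wholly below 1 in 4 pairs of 3 loci. It lay wholly above 2.5 in 18 pairs. The inner ncRNA had the higher fold in 33 of the 43. Pairs of the same locus share reads, so the counts of pairs are not counts of independent cases. The minimum of 10 input reads leaves out stretches with pull-down reads but little or no input, and 67 of the 110 pairs fall below it. Of these, 11 had at least 50 pull-down reads and 0 input reads outside the inner span. With a minimum of 50 reads of both libraries together instead, 15 of 58 pairs (25.9%) were below 2.5-fold outside the inner span, and the inner ncRNA had the higher fold in 34 of the 58. Both ncRNAs of a pair are listed only from 2.5-fold upward, while the stretch outside has no such limit. The listing thus favours higher inner folds by construction, and these counts are a description only.

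In the chromosome 17 locus NONMMUT028560 contains NONMMUT028559 and 5047 further bases. Those bases held 10 pull-down reads, against 48 input reads, a fold of 0.134 (0.0401 to 0.360), while the inner ncRNA had 4.78. Its 1437 pull-down reads make up nearly all of the 1447 of the outer one. On chromosome 4, NONMMUT048239 had a fold of 2.62 and NONMMUT048240 within it 10.76, and the 580 bases between them held 187 pull-down reads, against 167 input reads (0.723-fold, 0.532 to 0.981). On chromosome 5 near Coro1c, an actin-binding coronin gene, NONMMUT053965 had 3.34-fold and NONMMUT053966 within it 18.92-fold, and the 1716 bases outside it held 62 pull-down reads, against 40 input reads (1.00-fold, 0.552 to 1.85). On chromosome 17, NONMMUT030791 had 2.87-fold and NONMMUT030792 within it 23.55-fold, with 1.70 outside (1.23 to 2.39).

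The reverse order also occurred. On chromosome 14, NONMMUT020800 had 4.16-fold and NONMMUT020799 within it 2.59-fold, and the 1536 bases outside the inner span had 11.3-fold (6.85 to 18.8). In a further pair on chromosome 2 the inner fold was again the higher, but the stretch outside it was also enriched: NONMMUT036369 had 18.77-fold, and the 735 further bases of NONMMUT036368 had 4.23-fold (2.67 to 6.76).

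**Figure D4:**
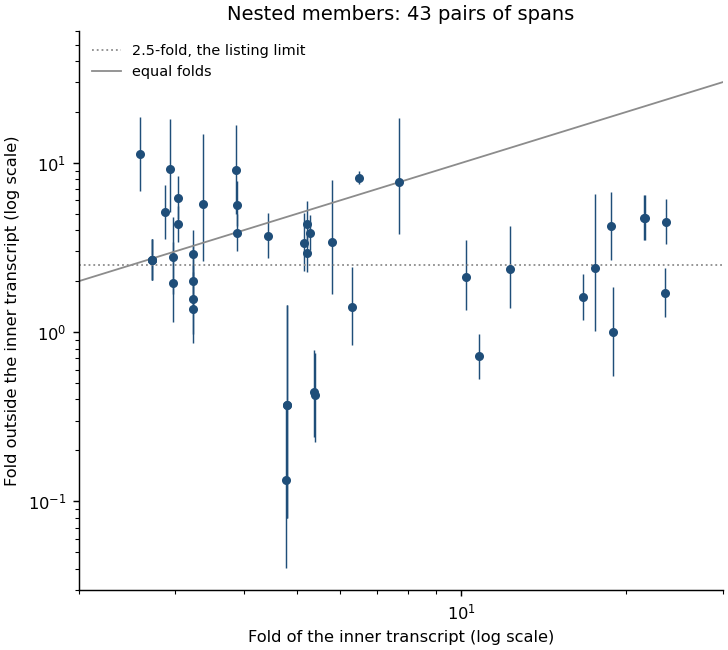
Fold of the stretch outside the inner ncRNA, with its 95% counting interval (vertical, log scale), against the fold of the inner ncRNA (horizontal, log scale), 1 point for each of 43 nested pairs of spans with at least 10 input reads outside the inner span. Points below the dotted 2.5-fold line number 17, and 33 lie below the line of equal folds.

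Of the 1454 ncRNAs, 112 (7.70%, interval 6.38 to 9.19%) overlapped the span of a messenger RNA that was also on the pull-down list, and 8.12% of all ncRNA candidates did. They belong to 87 genes, and 96 of them lie wholly inside the gene. Their median fold was 5.39, against 4.03 for the messenger RNAs, each counted once for every ncRNA that overlaps it. The ncRNA had the higher fold in 63 of 112. Several ncRNAs can lie in the same gene and share reads, so the 112 are not independent cases. A read within the span of an ncRNA cannot be assigned to the ncRNA or to the gene's own transcript in these data. The messenger RNA values need not hold the reads of the ncRNA. NONMMUT041809, wholly inside Mtg2, had 2.702 RPKM in the input, against 0.006 RPKM for the Mtg2 messenger RNA. RPKM levels were otherwise not compared between the ncRNA and messenger RNA lists. NONMMUT004353 overlaps Batf3, a transcription factor gene of dendritic cells. It had 2.094 RPKM in the pull-down, against 0.829 RPKM in the input (2.53-fold, 1.58 to 4.19). The Batf3 messenger RNA had 28.5-fold, on an input of only 0.008 RPKM. The opposite order held for NONMMUT053189 in Bmp2k, at 125.9-fold on 1 input pair (22.2 to 4971), against 2.69-fold for the messenger RNA. Both contrasts thus include a fold on very little input. A smaller share, 62 ncRNAs or 4.26% (3.28 to 5.43%), overlapped a promoter-associated ncRNA although their own names are not on that list. With 1 transcript per locus it was 3.37%. The share was 3.09% for the short and 5.22% for the long non-promoter ncRNAs, and 2.35% for those with an input of exactly 1 RPKM.

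Genes of lists that fit let-7 biology and the lung were looked up within 10 kb of the ncRNAs, by their messenger RNA span, promoter-associated ncRNA or peak-derived start site. The files place only genes they list, which gave a position to 89 of the 247 list entries, and 7 of the 89 lay within that distance. The share of all placed genes within it is not given here, so this count is not a result about the lists. Some named gene lay within 10 kb of 305 of the ncRNAs. Of the 7 placed among 31 let-7 targets, Hmga2, which encodes a chromatin protein, was found. NONMMUT007682, NONMMUT007683 and NONMMUT007685 lie within it on chromosome 10. NONMMUT007683 had 0.185 RPKM in the pull-down, against 0.042 RPKM in the input (4.4-fold, 1.52 to 17.1), and the other two had 2.74-fold and 4.38-fold, each on 8 input reads. The intervals of NONMMUT007683 and NONMMUT007685 lie above 1, that of NONMMUT007682 (0.895 to 11.2) does not.

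Of the 11 placed among 27 Polycomb and nuclear exosome genes, Exosc3, a core subunit of the RNA exosome, lies 7892 bases from NONMMUT047087. That ncRNA had 3.716 RPKM in the pull-down, against 0.262 RPKM in the input (14.18-fold, 7.44 to 27.5). Of the 16 placed among 33 TGF-beta and BMP genes, Acvr1, a type I BMP receptor, has a promoter-associated ncRNA that NONMMUT037405 overlaps, with 1.957 RPKM in the pull-down, against 0.062 RPKM in the input (31.56-fold, 5.42 to 1274, 1 input pair). The 15 placed among 32 WNT genes gave the scaffold gene Axin1 and the receptor gene Fzd4. NONMMUT028786 near Axin1 had 2.8-fold (1.33 to 6.57) and NONMMUT062629, 60 bases from Fzd4, had 30.865 RPKM in the pull-down, against 7.911 RPKM in the input (3.9-fold, 3.19 to 4.80). The mitotic cyclin gene Ccnb1, 1 of 7 placed among 30 cell cycle genes, has NONMMUT018881 at 4.26-fold (2.81 to 6.49) nearby. Tug1, a long ncRNA gene and 1 of 9 placed among 31 ncRNA and snoRNA hosts, has NONMMUT008299 at 4.85-fold (3.07 to 8.06). None of the 22 lung epithelium, 22 mesenchyme and matrix or 19 microRNA processing genes was found within that distance. Of these, 9, 7 and 8 had a position.

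ChIRP peaks of Mirlet7d, whose scores are the authors' own, lay within 10 kb of 109 ncRNAs, or 7.50% (6.20 to 8.97%), while 9.99% of all ncRNA candidates had one. The share was 8.81% for the short non-promoter, 12.2% for the long and 13.8% for the promoter-associated ncRNAs. A peak overlapped 26 of the ncRNAs (1.79%), beside 2.87% of all candidates. Longer spans meet more peaks, so the density was also taken. It was 3.54 peaks per Mb of span (counting interval 2.19 to 5.42). The short non-promoter ncRNAs had 9.28 (4.80 to 16.2) and the long ones 2.56 (1.32 to 4.48). The promoter-associated ones had 5.29 (4.29 to 6.45), and the chromosomes as a whole 1.63. A peak counted when it shared at least 1 base with a span, which raises the density most for short spans. The density therefore does not remove the effect of length. The 109 ncRNAs near a peak had a median fold of 5.15 and 21.1% (13.9 to 30.0%) exceeded 10, against 5.66 and 31.6% (29.1 to 34.2%) of the 1345 others. These intervals overlap slightly, which does not settle whether the shares differ, and the difference was not tested. The 109 lie in 89 loci, so the intervals treat some shared reads as separate.

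Peaks themselves were concentrated on 5 chromosomes, and so were the ncRNAs with a peak nearby. On chromosomes 6, 8, 11, 16 and 19, which hold between 3.94 and 5.54 peaks per Mb, 59 of 385 ncRNAs (15.3%, 11.9 to 19.3%) had a peak within 10 kb. On the others, with at most 0.993 peaks per Mb, it was 50 of 1069 (4.68%, 3.49 to 6.12%). This did not hold for each of the 5. Chromosome 16 had 5 of 61 (8.20%), less than chromosome 3 with 7 of 75 (9.33%) and chromosome 15 with 8.51%. The other ncRNA candidates had 25.6% on the 5 chromosomes and 5.83% elsewhere. The ncRNAs per Mb were densest on chromosome 11 (0.872), followed by 6 (0.797) and 19 (0.782), and sparsest on X (0.282). Median folds by chromosome ran from 4.12 on chromosome 7 to 9.15 on chromosome 8. The part of the uneven peak density in the proximity was not tested.

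**Figure D5:**
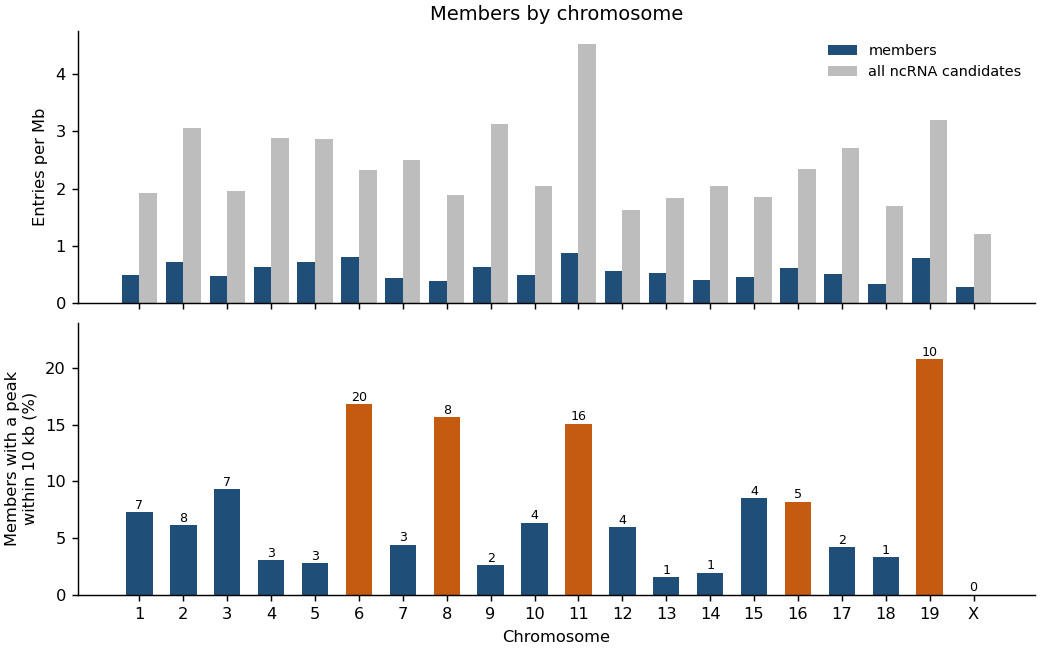
Top, mid-length non-promoter ncRNAs (blue) and all ncRNA candidates (grey) per Mb of each chromosome. Bottom, percent of the mid-length ncRNAs with a ChIRP peak within 10 kb, with their number above each bar and chromosomes 6, 8, 11, 16 and 19 in orange, where the shares run from 8.20% to 20.8%.

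The peaks with the highest scores near these ncRNAs lay at several kinds of site. NONMMUT012772 on chromosome 11 overlaps a peak of score 66.65, the highest within 10 kb, in intron 4 of 10 of Sap30bp, a gene named for its product's binding to the histone deacetylase subunit SAP30. It had 1.786 RPKM in the pull-down, against 0.059 RPKM in the input (30.27-fold, 5.19 to 1224, 1 input pair). NONMMUT036437 overlaps a peak of score 51.67 in intron 2 of 9 of Rxra, the retinoid X receptor gene, and had 1.799 RPKM in the pull-down, against 0.721 RPKM in the input (2.5-fold, 1.63 to 3.80). NONMMUT033665 overlaps a peak of score 44.74 at the end of Sac3d1, with 7.35-fold (2.98 to 23.5). NONMMUT067694 and NONMMUT012931, with peaks of scores 44.9 and 40.86, had folds of 12.33 (4.66 to 46.8) and 2.73 (2.16 to 3.48).

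Further high-scoring peaks lay beside ncRNAs and not on them. The peak of score 65.63 is 8725 bases from NONMMUT004353 at Batf3. The peak of score 58.56 in Polr2c, an RNA polymerase II subunit gene, is 4324 bases from NONMMUT066806, which had 8.497 RPKM in the pull-down, against 3.325 RPKM in the input (2.56-fold, 1.77 to 3.81). The peak of score 55.31 is 8954 bases from NONMMUT011013 near Rhbdl3 (3.68-fold, 1.63 to 9.76). NONMMUT011394 lies 55 bases from a peak of score 50.08 at the end of Srsf1. Of the 110 peaks within 10 kb of the ncRNAs, 45.5% were annotated as intronic, 28.2% as intergenic and 10.0% as promoter, beside 42.6%, 40.0% and 9.45% of all 4286 peaks.

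A single peak can touch several of the ncRNAs. On chromosome 19 a peak of score 33.49, annotated to exon 5 of 10 of the ncRNA gene Mirt1, overlaps NONMMUT035063, NONMMUT035065, NONMMUT035071 and NONMMUT035072, a locus singled out after its values were seen. Their folds were 4.87, 2.94, 6.79 and 9.19. Likewise a peak of score 31.3 on chromosome 2 overlaps NONMMUT036427, NONMMUT036428, NONMMUT036429 and NONMMUT036430, with folds of 5.03, 4.28, 4.14 and 7.75. The 26 ncRNAs that overlap a peak therefore lie in 20 loci and meet 21 peaks.

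Promoter peaks lay within 10 kb of 12 of the ncRNAs. For 5 of the genes the deposited distance from peak to start site lies between 250 bases before and 50 bases after the start, which is the reach of the RefSeq promoter windows (GRCm38.p6). These are Bpgm, Surf6, Med26, Zmat2, near NONMMUT032023 at 33.94-fold, and 1810032O08Rik, near NONMMUT012849 at 16.37-fold. The peak near NONMMUT012849 is annotated to the promoter of Snhg16, and 1810032O08Rik is the nearest gene listed for it. The windows of Bpgm, Surf6 and Med26 are shown. The bases from the start onward are in capitals.
Bpgm: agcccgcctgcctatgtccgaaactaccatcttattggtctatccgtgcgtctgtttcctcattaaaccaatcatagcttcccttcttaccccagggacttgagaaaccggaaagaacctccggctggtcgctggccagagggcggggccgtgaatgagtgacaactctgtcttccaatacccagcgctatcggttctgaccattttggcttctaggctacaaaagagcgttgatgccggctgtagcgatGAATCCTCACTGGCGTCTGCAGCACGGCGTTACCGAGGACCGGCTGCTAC
Surf6: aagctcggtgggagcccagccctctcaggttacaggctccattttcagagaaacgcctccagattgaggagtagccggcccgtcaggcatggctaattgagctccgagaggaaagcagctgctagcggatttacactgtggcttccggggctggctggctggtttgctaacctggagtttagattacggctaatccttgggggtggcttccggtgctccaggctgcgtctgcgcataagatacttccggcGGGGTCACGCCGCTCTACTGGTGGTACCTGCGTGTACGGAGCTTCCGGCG
Med26: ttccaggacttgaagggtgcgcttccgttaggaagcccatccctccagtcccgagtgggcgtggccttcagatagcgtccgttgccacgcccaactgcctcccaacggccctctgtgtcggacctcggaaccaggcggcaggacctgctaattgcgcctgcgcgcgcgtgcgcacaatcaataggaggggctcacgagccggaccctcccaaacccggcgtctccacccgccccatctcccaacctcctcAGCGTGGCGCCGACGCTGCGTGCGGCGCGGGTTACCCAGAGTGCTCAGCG
Bpgm encodes an enzyme that makes bisphosphoglycerate in red cells, Surf6 a nucleolar protein and Med26 a subunit of the Mediator complex. The windows lie on chromosome 6 from 34476106 to 34476405 on the plus strand, chromosome 2 from 26902838 to 26903137 on the minus strand and chromosome 8 from 72548261 to 72548560 on the minus strand. Neither CTACCTC nor GAGGTAG occurs in any of them, which says only that these letters are not in the windows. Of all 32851 promoter windows of 300 bases, 1265 (3.85%) hold a match on either strand. NONMMUT056307 lies within Bpgm, 7436 bases from its promoter peak of score 54.88. It had 13.231 RPKM in the pull-down, against 4.546 RPKM in the input (2.91-fold, 2.53 to 3.37), and overlaps another peak of score 30.48 in intron 2 of 2. NONMMUT036368, 9852 bases from the Surf6 peak of score 34.06, had 11.776 RPKM in the pull-down, against 1.533 RPKM in the input, a fold of 7.68. NONMMUT066146, 5596 bases from the Med26 peak of score 31.53, had 2.269 RPKM in the pull-down, against 0.248 RPKM in the input, a fold of 9.15.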

How the data were processed

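RPKM values of input and pull-down, rounded by the authors to 3 decimals, and their ratio, the fold, were taken as deposited, per the file headers. The deposited fold differed from the quotient of the RPKM values by at most 0.0050. The submitters' processing notes give genome mm9 and list, for both assays, Bowtie2, HOMER, FastQC, SAMtools and bedtools (2.15 in the pull-down), with Picard 1.119 and Trimmomatic added for the pull-down and MACS for ChIRP. The step each tool carried out, and the annotation version, are not given in the sources used here. ChIRP peaks carry the score the authors deposited, and the deposited annotation gives each peak's class and distance to a start site. Of the 12 samples, tables from 3 (pull-down, its input, ChIRP) were analysed.

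Reads were recovered as RPKM times span times the fitted denominator. Fold intervals are exact (Clopper-Pearson, 95%) from the pull-down share of both libraries' reads, counted as pairs. They reflect counting error alone, with PCR copies included, and compare 2 libraries, not conditions. Where 1 input read was counted as a whole pair, the interval is that of a ratio smaller than the one deposited. The calculation was tested on simulated data. Python 3.11.15, NumPy 2.4.6, pandas 2.3.3, SciPy 1.17.1 and Matplotlib 3.10.9 were used. Spans were merged by an overlap of at least 1 base, without strand. Coordinates are as deposited, except those of RefSeq sequences.

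The ncRNAs, gene lists and tests were chosen with earlier results of these data known. Named were the 10 highest folds with at least 10 input reads, the 5 highest folds, the 10 highest pull-down levels, the 5 highest-scoring peaks on and near the ncRNAs, the 3 largest loci, entries at the length limits, the 5 most abundant in a listed messenger RNA, and those near genes of the lists (let-7 targets, Polycomb and nuclear exosome, TGF-beta and BMP, WNT, cell cycle, lncRNA and snoRNA hosts, lung epithelium, mesenchyme and matrix, microRNA processing). Pseudocounts, filters, distances and merging rules were varied. One of the named loci is not reported here.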

Additional observations from a re-analysis of the deposited data

How the results depend on the processing

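Of 37 alternatives, 20 left a value inside its interval or count limit and 17 moved it. The median fold of 5.66 became 4.34 with a pseudocount of 0.1 RPKM, 5.19 with inputs of at least 0.05 RPKM, 3.88 with at least 10 input reads and 4.96 with inputs of exactly 1 RPKM kept. The share above 10-fold, 30.8%, became 16.4%, 26.6%, 9.35% and 26.7% under the same settings in that order. It was 9.82% with at least 5 input pairs, an alternative added after seeing the data, and 55.2% with a limit of 5-fold. Intervals lay above 1 for 97.4% with reads counted singly and above 2.5 for 51.4%. The share near a ChIRP peak, 7.50%, became 1.79% for overlap, 2.20% within 1 kb, 25.7% within 50 kb, 2.48% with scores of at least 40 and 4.68% without chromosomes 6, 8, 11, 16 and 19. Counting 1 transcript per locus kept the median fold at 5.75 and the share above 10-fold at 31.2%. The nested comparison, itself chosen after seeing the data, as were its alternatives, gave 37.8% of stretches below 2.5-fold with at least 20 input reads and 25.9% with at least 50 reads of both libraries, against 39.5%. Filters and distances change which ncRNAs or peaks enter a value by construction, and otherwise the cause was not tested. Of the 448 ncRNAs above 10-fold, 201 rest on 1 input pair, beside 132 of the 300 short non-promoter ncRNAs above 10-fold. No paired analysis was possible because each group is 1 library and no result comes from a test between replicates.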
